A study of Mus musculus with 9 samples.

Results

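The genes described here are the replication-dependent histone genes, which lie in clusters and encode the linker histone H1 and the core histones H2A, H2B, H3 and H4. They were chosen by name alone, as the entries of the gene table whose symbol begins with Hist1h, Hist2h, Hist3h or Hist4h or follows the newer cluster names. The rule found 39 of 15074 genes: 4 for H1, 11 for H2A, 9 for H2B, 8 for H3 and 7 for H4. GENCODE M21 lists 70 genes that match the rule, and the 31 without an entry were not analysed here. Since no value in the table is 0, a gene with an entry has reads in every library.

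Histone proteins package newly made DNA, and the clustered genes are switched on as cells enter S phase. Their main transcripts differ from other mRNAs at the 3′ end: instead of a poly(A) tail they carry a stem-loop that is bound by SLBP, the stem-loop binding protein, and the RNA is cut just behind it with the help of the U7 snRNP. Some of these genes can also give a longer RNA that runs past the stem-loop to an ordinary poly(A) signal, and such forms are known from differentiating cells and from cells that have left the cycle. The libraries were made from RNA captured on oligo(dT) beads, so the values below reflect polyadenylated histone RNA and not the bulk of histone mRNA.

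RNA-seq was available for 9 libraries from mouse J1 embryonic stem cells (ESCs), 1 for each of 3 lines on days 0, 2 and 4 of differentiation. WT cells carry intact Dnmt1, which encodes the maintenance DNA methyltransferase. 1KO cells are Dnmt1-/-. 1KO+1CI cells are 1KO cells with a transgene for catalytically inactive DNMT1 driven by the CAG promoter, and were derived as transfected clones. Day 0 cells had been grown with LIF on mitomycin C-treated mouse embryonic fibroblast feeders. The feeders were reduced by a plating step before embryoid bodies were formed without LIF, and adherent culture followed. With a single library for each line and day there is no spread between cultures, and differences between single libraries were not tested.

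The libraries held 20200000 to 28100000 counted reads, as recovered from the values. Dnmt1 was at 74.0, 80.4 and 48.5 FPKM (reads scaled to transcript length and library size) in WT cells on days 0, 2 and 4, at 13.7, 17.4 and 12.3 FPKM in 1KO cells, and at 315, 129 and 158 FPKM in 1KO+1CI cells. Of the labelled cell type, all 8 ESC markers searched were present. Pou5f1 lay between 632 and 1010 FPKM in the 9 libraries, but most of the other markers did not stay level. In the additive fit described below, 3 of the 8 were called lower than day 0 on day 2 and 6 on day 4, with 0 called higher. The median fitted difference of the 8 markers in log2(FPKM + 1) was -0.77 for day 2 and -3.36 for day 4. The summed level of 5 epiblast markers was 122 to 143 FPKM on day 0 and 396.3 to 589.1 FPKM on day 4, while 4 primitive streak markers summed to 2.79 to 4.21 FPKM on day 0 and 14.5 to 87.1 FPKM on day 4. The 9 feeder fibroblast markers found summed to 100.3, 201.1 and 234.4 FPKM in WT, 1KO and 1KO+1CI cells on day 0, and to 14.5 to 44.7 FPKM on days 2 and 4. RNA of the feeders was thus present on day 0 in amounts that differed between the lines. In bulk RNA, fewer cells of a type and less RNA per cell cannot be told apart.

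Where a histone gene has a stem-loop in its annotated transcript, it is the landmark behind which the usual transcript ends. Whether the captured RNA ran past it was not tested. A stem of 6 pairs (opening with GG, closing with CC, at most 1 mispair) around a loop of 4 bases (with T in fixed positions) was found after the stop codon in 25 of the 38 distinct genes. The 16 bases of the hairpin are in capitals, with 5 bases on each side, read 5′ to 3′ on the strand of the gene (GRCm38, GENCODE M21):
Hist1h1c, chr13:23739507-23739532, plus strand: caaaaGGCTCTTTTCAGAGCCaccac
Hist1h2bj, chr13:22043633-22043658, plus strand: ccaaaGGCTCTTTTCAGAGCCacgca
Hist3h2a, chr11:58955167-58955192, plus strand: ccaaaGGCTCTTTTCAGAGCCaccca
Hist1h2bk, chr13:22036295-22036320, plus strand: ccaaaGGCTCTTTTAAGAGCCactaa
Hist1h3c, chr13:23745042-23745067, minus strand: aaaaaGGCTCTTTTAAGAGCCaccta
Hist1h3g, chr13:23535884-23535909, plus strand: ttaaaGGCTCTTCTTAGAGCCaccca
Hist1h4i, chr13:22040961-22040986, minus strand: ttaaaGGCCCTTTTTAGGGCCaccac
Hist1h4n, chr13:21831793-21831818, minus strand: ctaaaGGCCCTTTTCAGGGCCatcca
Hist1h4j, chr13:21735432-21735457, plus strand: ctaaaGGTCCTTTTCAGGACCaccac

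The hairpin of Hist1h1c, Hist1h2bj and Hist3h2a was the commonest, with 14 genes of the classes H1, H2A, H2B and H3. A second form, seen in Hist1h2bk and Hist1h3c, was held by 4 genes. Every H4 gene with a hairpin had a stem other than these, and the form of Hist1h4n was shared by 3 H4 genes. Among the remaining 13 genes, the annotated transcripts of Hist1h1b, Hist1h2ak, Hist1h2an, Hist1h3h, Hist1h3i, Hist1h4k and Hist2h2bb stop at the stop codon. Those of Hist1h2af and Hist1h2ah end 1 and 2 bases past it. For all of these, no match says nothing about the sequence behind them.

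The annotated transcripts ended in different ways. In 10 of the 38 genes a poly(A) signal (AATAAA or ATTAAA) lies within 40 bases of the annotated end. These are Hist1h1c, Hist1h2ae, Hist1h2be, Hist1h4a, Hist1h4h, Hist1h4i, Hist1h4j, Hist2h2be, Hist3h2a and Hist3h2ba. The annotated transcript ran 840 bases past the stem-loop in Hist1h1c, 1643 bases in Hist3h2a, 330 bases in Hist1h4i and 169 bases in Hist3h2ba. The lengths behind the recovered reads were those of the shorter RefSeq forms, 722 bases for Hist1h1c, 505 for Hist3h2a and 400 for Hist1h4i. These forms end at the stem-loop, so the stretches further on lie outside the counted length. In Hist1h2bj and Hist1h2bk it ended 23 and 30 bases past the stem-loop, without such a signal. This grouping was made after the values had been seen and is used below as a description only.

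Upstream of the transcription start, the genes carried the short motifs known from histone promoters. In the 250 bases before the start, searched on both strands in 34 genes with a RefSeq promoter entry, CCAAT was found in 29 genes (85.3%, against 34.5% of all 27025 promoters). TATAAA was found in 17 genes (50%, against 13%), and the octamer ATTTGCAT, a binding site of OCT factors known from H2B genes, in 7 genes (20.6%, against 1.61%), 4 of them for H2A and 3 for H2B. The H1 box AAACACA was found in 3 of 4 H1 genes and in 1 H2A gene, against 6.22% of all promoters. The 120 bases before the start are shown for 2 H1 genes and an H2B gene that fell on day 2 and for the H4 gene that rose, with matches in capitals (a match on the other strand appears as its complement; RefSeq, GRCm38.p6):
Hist1h1b, chr13:21780626-21780745, minus strand: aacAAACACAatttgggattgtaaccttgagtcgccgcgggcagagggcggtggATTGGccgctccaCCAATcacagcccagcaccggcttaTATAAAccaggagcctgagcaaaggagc
Hist1h1c, chr13:23738687-23738806, plus strand: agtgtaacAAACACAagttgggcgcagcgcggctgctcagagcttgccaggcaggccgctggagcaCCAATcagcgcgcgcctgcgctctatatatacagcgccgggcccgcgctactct
Hist2h2bb, chr3:96269580-96269699, plus strand: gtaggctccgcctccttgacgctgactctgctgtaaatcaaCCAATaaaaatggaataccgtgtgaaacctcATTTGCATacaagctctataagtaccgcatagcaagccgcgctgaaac
Hist1h4k, chr13:21750554-21750673, minus strand: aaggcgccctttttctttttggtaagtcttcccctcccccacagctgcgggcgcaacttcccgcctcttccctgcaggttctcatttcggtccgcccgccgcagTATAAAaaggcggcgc
The H4 gene Hist1h4k, which was higher on days 2 and 4 than on day 0, had no CCAAT in its 250 bases, as was the case for 5 of 7 H4 genes. The H1 genes and the H2B gene, which were lower on day 2, all had it, as did all 10 H2A, 7 H2B and 6 H3 genes searched. Genes that were not called lower on day 2, such as Hist3h2a and Hist1h3g, are among these. A match is a description of the letters and not evidence of binding.

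Polyadenylated histone RNA was scarce. The mean over the 9 libraries had a median of 1.48 FPKM over the 39 genes, against 6.53 FPKM over all genes, and single values ranged from 0.053 to 13.8 FPKM. Of the 39 genes, 34 reached 1 FPKM in some library and 5 did not. Whole reads could be recovered for 36 genes, and the middle gene had 14 reads in a library. Equal counts of that size allow a ratio between 0.442 and 2.26 (exact 95% binomial interval), so between 2 libraries a ratio within those bounds was not detectable for a gene with that many reads. Genes with more reads resolved smaller ratios, such as Hist1h1c with 1.57 times the WT level in 1KO cells on day 0 (1.26 to 1.96). Intervals here cover counting error only, and it is not known whether 1 read in the table is a read or a read pair. Hist2h2aa1 and Hist2h2aa2 had the same reads in all 9 libraries and were counted once, which leaves 38 distinct genes. Of these, 23 shared at least 25% of their 100-base windows with another histone gene. How reads with several alignments were counted is not given in the sources used here, so the split between near-identical genes is uncertain. Hist1h2al corresponds in RefSeq to a pseudogene outside the cluster, at chr13:51200084-51203066, and was kept because the rule names it.

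**Figure D1:**
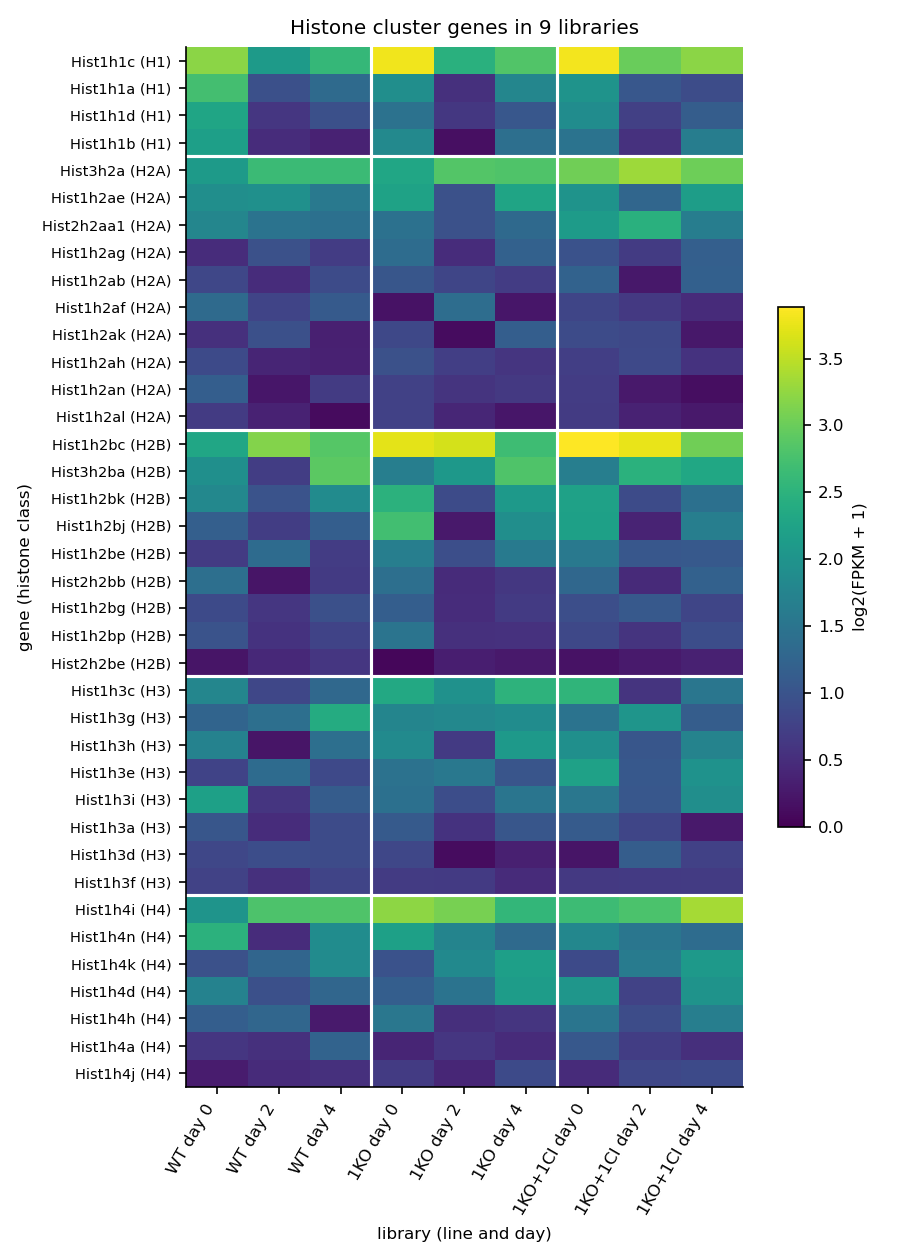
Level of each of the 38 distinct histone genes (rows, by class and then by mean level) in the 9 libraries (columns), as log2(FPKM + 1), with brighter colours for higher levels. Hist1h1c, Hist1h2bc, Hist1h4i and Hist3h2a are bright in most libraries, and the other H1 genes are dark on day 2 in all 3 lines.

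The clearest pattern was with the day. Summed over the 35 distinct genes with whole reads, histone RNA in WT cells made up 41.5 RPM (reads scaled to the counted reads of the library) on day 0 (95% Poisson interval 38.8 to 44.4), 21.9 on day 2 (20.1 to 23.8) and 31.6 on day 4 (29.3 to 34.1). In 1KO cells the sums were 46.3 (43.9 to 48.9), 25.7 (23.5 to 27.9) and 37.6 (35.1 to 40.2) RPM. In 1KO+1CI cells they were 47.4 (44.6 to 50.2), 31 (28.7 to 33.4) and 38.5 (35.8 to 41.3). Day 2 was the lowest day in each line, and the intervals of the 3 days did not overlap within any line. The day 2 sum was 0.527 times that of day 0 in WT cells (interval 0.472 to 0.587), 0.554 times in 1KO cells (0.5 to 0.613) and 0.654 times in 1KO+1CI cells (0.593 to 0.721). In FPKM over all 38 distinct genes, which also covers Hist1h2bc, Hist1h2be and Hist1h2bp, these ratios were 0.65, 0.623 and 0.707. Day 4 was 1.45 times day 2 in WT cells (1.29 to 1.62), 1.46 times in 1KO cells (1.31 to 1.63) and 1.24 times in 1KO+1CI cells (1.12 to 1.38). A read counted for several near-identical genes would enter these sums more than once.

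The feeder markers moved with part of this pattern. All 9 were lower on days 2 and 4 than on day 0 in the additive fit described below, 8 of them past its threshold on day 2 and all 9 on day 4. Between day 2 and day 4 their sum went from 14.5 to 15.1 FPKM in WT cells, from 28.6 to 15.8 FPKM in 1KO cells and from 44.7 to 28.7 FPKM in 1KO+1CI cells, while the histone sum was higher on day 4 in each line. Their part in the difference between day 0 and the later days was not tested.

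**Figure D2:**
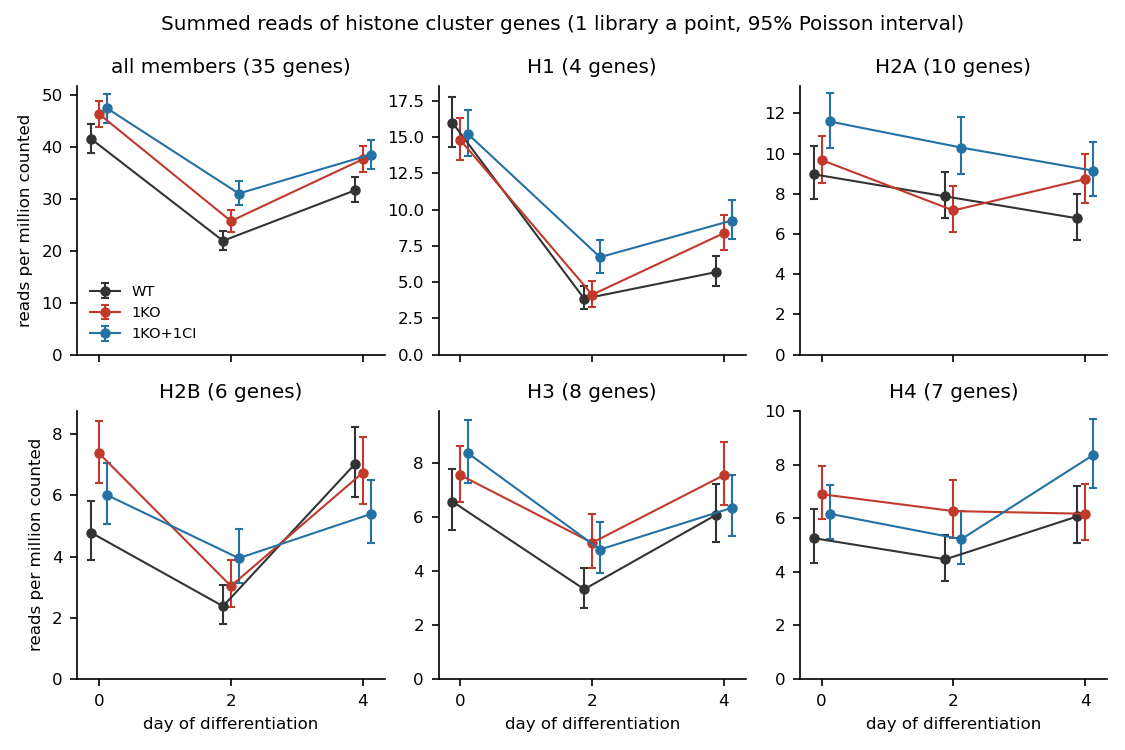
RPM (vertical axis, linear) summed over all 35 distinct genes with whole reads and over each class, by day of differentiation (horizontal axis) and line (colours). Each point is 1 library and bars are exact 95% Poisson intervals. The sum over all genes is lowest on day 2 in each line, and the H1 panel shows the deepest difference between day 0 and day 2.

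The classes differed in how far they followed this course. H1 genes together gave 16, 3.85 and 5.69 RPM in WT cells on days 0, 2 and 4, 14.8, 4.13 and 8.38 in 1KO cells, and 15.2, 6.72 and 9.25 in 1KO+1CI cells. Their day 2 sum was 0.241 times that of day 0 in WT cells (0.190 to 0.304), 0.279 times in 1KO cells (0.218 to 0.352) and 0.441 times in 1KO+1CI cells (0.361 to 0.537). H3 genes had day 2 ratios of 0.506 (0.379 to 0.671), 0.668 (0.524 to 0.847) and 0.575 (0.448 to 0.733) in the same order. In both classes all 3 intervals lay below 1. H4 genes had ratios of 0.849 (0.645 to 1.12), 0.908 (0.723 to 1.14) and 0.845 (0.655 to 1.09), so that a difference in the H4 sum was not detectable. For H2A the ratios were 0.877, 0.741 and 0.887, and the interval excluded 1 only in 1KO cells (0.603 to 0.908). The H2A sum includes Hist1h2al, the entry that matches a pseudogene. In 1KO cells it gave 58 of 272 H2A reads on day 0 and 21 of 151 on day 2. Whether the interval would still exclude 1 without it was not tested. For the 6 H2B genes with whole reads they were 0.498, 0.413 and 0.657, each with an interval below 1. In FPKM, which also covers Hist1h2bc, Hist1h2be and Hist1h2bp, the H2B ratios were 0.899, 0.576 and 0.753.

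Gene by gene, a difference over 0.5 or under -0.5 in log2(FPKM + 1) between 2 libraries was taken as past the threshold. From day 0 to day 2 in WT cells, 15 of 38 genes were under -0.5 (39.5%, against 14.7% of all genes) and 5 were over 0.5 (against 11.3%). In 1KO cells 18 were under -0.5 (47.4%, against 11.1%) and 3 were over 0.5 (against 9.49%). In 1KO+1CI cells 15 were under -0.5 (39.5%, against 10.6%) and 4 were over 0.5 (against 11.5%). The medians were -0.32, -0.48 and -0.31 in WT, 1KO and 1KO+1CI cells, where the median over all genes was between -0.01 and 0.03. The 3 day 2 comparisons each have their own day 0 library. Lower by more than 0.5 in all 3 lines were 7 genes: Hist1h1a, Hist1h1b, Hist1h1c, Hist1h1d, Hist1h2bk, Hist1h3h and Hist2h2bb, against 4.25% of all genes, and no histone gene was higher by more than 0.5 in all 3 (3.01% of all genes).

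From day 0 to day 4 the difference was smaller. In WT cells 10 genes were under -0.5 (against 14.7% of all genes) and 7 over 0.5 (against 11%), in 1KO cells 10 (against 14.1%) and 4 (against 14.5%), and in 1KO+1CI cells 11 (against 14.3%) and 4 (against 16.2%). The medians were -0.17, -0.15 and -0.18. The shares under -0.5, 26.3%, 26.3% and 28.9%, stayed above those of all genes. The day 4 comparisons share their day 0 libraries with the day 2 comparisons.

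**Figure D3:**
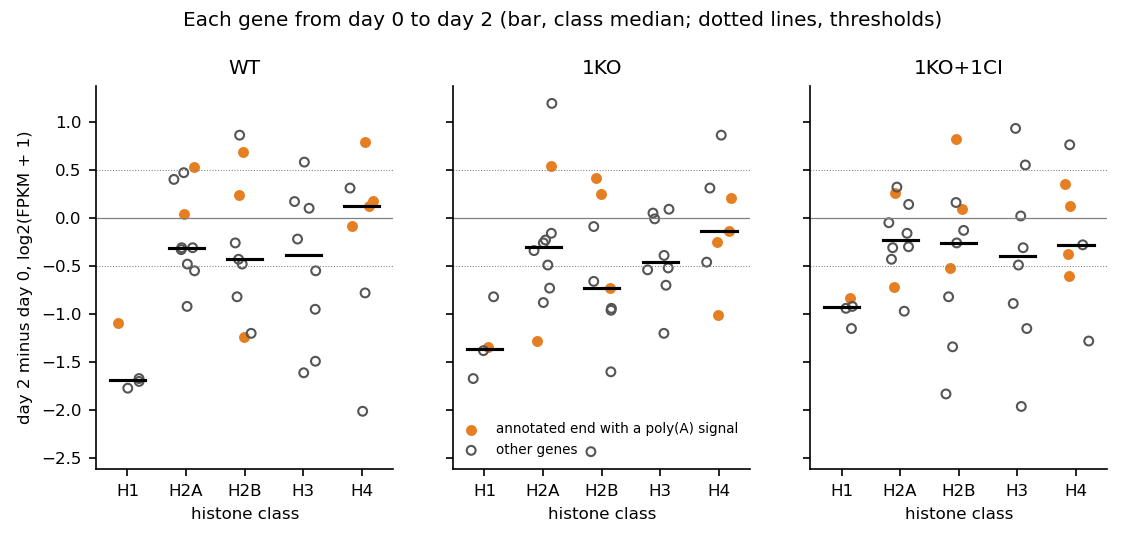
Difference between day 2 and day 0 in log2(FPKM + 1) (vertical axis) for each of the 38 distinct histone genes, by class (horizontal axis) and line (panels). Filled orange points are the 10 genes whose annotated transcript ends with a poly(A) signal, bars are class medians and dotted lines mark 0.5 and -0.5. All 4 H1 genes lie below -0.5 in each line, and H4 genes lie on both sides of 0.

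Line and day were tested in a fit in which each adds to log2(FPKM + 1) over all 9 libraries (limma, all 15074 genes, Benjamini-Hochberg adjusted p under 0.05). Its error is the departure of the libraries from additivity and does not measure the spread between cultures. For day 2 against day 0, 10 of 38 histone genes were lower (8.11% of all genes) and 1 was higher (7.34% of all genes). An unadjusted p under 0.05 was seen in 18 of the 38 and in 4833 of all 15074 genes. For day 4 against day 0, 4 were lower (12.3% of all genes) and 1 was higher (11.3% of all genes). On day 4 the count of lower genes was near the background and that of higher genes below it.

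All 4 linker histone genes fell on day 2. Hist1h1c, the most abundant of them, was at 8.28, 3.35 and 4.99 FPKM in WT cells on days 0, 2 and 4, at 13, 4.54 and 6.10 FPKM in 1KO cells and at 13.2, 6.96 and 8.28 FPKM in 1KO+1CI cells. Every line was highest on day 0 and lowest on day 2, and the fitted difference for day 2 was -1.09 ± 0.14 (SE, adjusted p = 0.00381) and for day 4 -0.74 ± 0.14 (adjusted p = 0.00897). Hist1h1a was at 5.59, 0.938 and 1.53 FPKM in WT cells, 2.78, 0.448 and 2.44 FPKM in 1KO cells, and 2.98, 1.08 and 0.866 FPKM in 1KO+1CI cells. Its fitted difference for day 2 was -1.36 ± 0.27 (adjusted p = 0.0170). Hist1h1d was at 3.87, 0.530 and 0.920 FPKM in WT cells, 1.75, 0.553 and 1.08 FPKM in 1KO cells, and 2.70, 0.668 and 1.22 FPKM in 1KO+1CI cells. It fell by 1.21 ± 0.18 on day 2 (adjusted p = 0.00671) and by 0.83 ± 0.18 on day 4 (adjusted p = 0.0168).

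Hist1h1b showed the same low day 2 in each line but differed between lines on day 4. It had 59, 8 and 5 reads in WT cells on days 0, 2 and 4, 57, 2 and 30 reads in 1KO cells, and 34, 8 and 34 reads in 1KO+1CI cells. The day 4 level was 0.0833 times that of day 0 in WT cells (0.0261 to 0.206), 0.652 times in 1KO cells (0.404 to 1.03) and 1.19 times in 1KO+1CI cells (0.715 to 1.97). On day 4 the 1KO level was 5.58 times that of WT cells (2.14 to 18.4). Its fitted difference for day 2 was -1.43 ± 0.33 (adjusted p = 0.0273).

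Of the H2B genes, 3 fell on day 2. Hist1h2bj had 12, 7 and 12 reads in WT cells, 71, 2 and 29 reads in 1KO cells, and 40, 3 and 20 reads in 1KO+1CI cells. The low day 2 was large in 1KO and 1KO+1CI cells, with ratios to day 0 of 0.0376 (0.00447 to 0.141) and 0.0845 (0.0167 to 0.265), while in WT cells the ratio of 0.495 had an interval of 0.165 to 1.36. Hist1h2bk was at 2.52, 0.989 and 2.67 FPKM in WT cells, 4.65, 0.860 and 3.28 FPKM in 1KO cells, and 3.69, 0.851 and 1.69 FPKM in 1KO+1CI cells. Hist2h2bb, from the cluster on chromosome 3, had 17, 2 and 6 reads in WT cells, 23, 4 and 6 in 1KO cells, and 17, 4 and 13 in 1KO+1CI cells. Day 2 was the lowest library of each line for all 3 genes. Fitted differences for day 2 were -1.58 ± 0.31 for Hist1h2bj (adjusted p = 0.0163), -1.26 ± 0.20 for Hist1h2bk (adjusted p = 0.00777) and -0.99 ± 0.16 for Hist2h2bb (adjusted p = 0.00777). Hist2h2bb was also lower on day 4, by -0.54 ± 0.16 (adjusted p = 0.0397).

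Of the H3 genes, Hist1h3h and Hist1h3c fell on day 2. Hist1h3h was at 2.29, 0.169 and 1.66 FPKM in WT cells, 2.64, 0.587 and 3.27 FPKM in 1KO cells, and 2.84, 1.07 and 2.34 FPKM in 1KO+1CI cells. It was low on day 2 in each line and back at or near the day 0 level on day 4, with a fitted difference of -1.19 ± 0.17 for day 2 (adjusted p = 0.00582) and of -0.09 for day 4. Hist1h3c was at 2.43, 0.773 and 1.49 FPKM in WT cells, 4.10, 2.89 and 4.71 FPKM in 1KO cells, and 4.81, 0.492 and 1.86 FPKM in 1KO+1CI cells, and had a fitted difference of -1.10 ± 0.27 for day 2 (adjusted p = 0.0321). In 1KO cells its day 2 level was 0.704 times that of day 0 (0.433 to 1.12), so that a difference was not detectable there. Hist1h2al, the entry that matches a pseudogene, was also called, with -0.32 ± 0.08 on day 2 (adjusted p = 0.0352) and -0.50 ± 0.08 on day 4 (adjusted p = 0.00456).

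The single gene that rose was Hist1h4k, an H4 gene. It had 8, 14 and 23 reads in WT cells on days 0, 2 and 4, 11, 22 and 33 reads in 1KO cells, and 8, 18 and 27 reads in 1KO+1CI cells, so that the order of the days was the same in each line. The fitted difference was 0.64 ± 0.15 for day 2 (adjusted p = 0.0253) and 1.12 ± 0.15 for day 4 (adjusted p = 0.00209). The H4 protein is encoded identically by all 7 H4 genes here, and 64.3% of the 100-base windows of Hist1h4k occur in another histone gene, so the split of reads among H4 genes bears on this value.

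**Figure D4:**
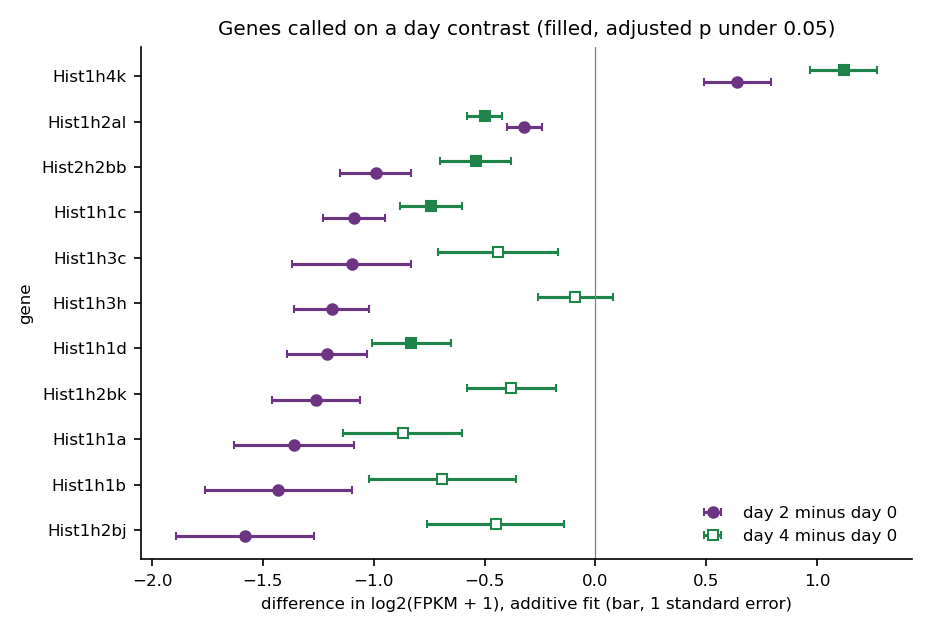
Fitted differences from day 0 in log2(FPKM + 1) (horizontal axis, with 1 standard error) for the 11 histone genes called on day 2 or day 4 in the additive fit of line and day. Circles are day 2 and squares day 4, filled where the adjusted p is under 0.05. On day 2, 10 genes lie below 0 and Hist1h4k lies above, and for 9 of the 10 the day 4 value lies closer to 0.

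Other abundant genes did not have their lowest level on day 2 in every line. Hist3h2a, an H2A gene of the small cluster on chromosome 11, was at 3.34, 5.27 and 5.26 FPKM in WT cells on days 0, 2 and 4, at 3.94, 6.2 and 6.02 FPKM in 1KO cells, and at 7.26, 8.93 and 7.14 FPKM in 1KO+1CI cells. The fitted difference for day 2 of 0.45 ± 0.15 did not pass the threshold (adjusted p = 0.0809). Its neighbour Hist3h2ba, an H2B gene, was at 2.84, 0.624 and 6.51 FPKM in WT cells, 2.17, 3.21 and 6.05 FPKM in 1KO cells, and 2.18, 4.61 and 3.98 FPKM in 1KO+1CI cells. On day 2 it was at 0.22 times its day 0 level in WT cells (0.0809 to 0.518), its lowest library, but at 2.11 times in 1KO+1CI cells (1.26 to 3.62). It was above its day 0 level on day 4 in each line, by 2.29 times in WT (1.44 to 3.75), 2.79 times in 1KO (1.76 to 4.52) and 1.83 times in 1KO+1CI cells (1.06 to 3.19), but the fitted value of 0.92 ± 0.41 was not called (adjusted p = 0.138). Hist1h4i, the most abundant H4 gene, was at 3.01, 5.94 and 6.04 FPKM in WT cells, 8.36, 7.48 and 4.96 FPKM in 1KO cells, and 5.32, 5.87 and 9.27 FPKM in 1KO+1CI cells. Hist1h2bc, the most abundant of all, was at 3.92, 7.96 and 6.25 FPKM in WT cells, 12.2, 11.5 and 5.38 FPKM in 1KO cells, and 13.8, 12.5 and 7.28 FPKM in 1KO+1CI cells. Hist3h2a, Hist3h2ba and Hist1h4i are among the genes whose annotated transcript ends with a poly(A) signal.

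Of the 10 genes with such an annotated end, 9 had whole reads. Together these had a day 2 sum of 0.868 times day 0 in WT cells (0.731 to 1.03), 0.660 times in 1KO cells (0.568 to 0.766) and 0.825 times in 1KO+1CI cells (0.717 to 0.95). For the other 28 genes, of which 26 had whole reads, the ratio was 0.371 in WT cells (0.319 to 0.430), 0.479 in 1KO cells (0.416 to 0.550) and 0.531 in 1KO+1CI cells (0.462 to 0.608). The groups lay closer in 1KO and 1KO+1CI cells in FPKM, which also covers Hist1h2be in the first group and Hist1h2bc and Hist1h2bp in the second. In that form the ratios were 0.967, 0.686 and 0.862 for the 10 genes and 0.513, 0.587 and 0.62 for the 28, in WT, 1KO and 1KO+1CI cells. In the additive fit 1 of the 10 genes (Hist1h1c) and 9 of the 28 fell on day 2, and the median fitted difference was -0.04 against -0.48. The difference between the groups was not tested, since the grouping was made after the values were seen. The 28 are also not genes shown to lack a poly(A) signal. The annotated transcripts of Hist1h1b, Hist1h2ak, Hist1h2an, Hist1h3h, Hist1h3i, Hist1h4k and Hist2h2bb stop at the stop codon. Those of Hist1h2af and Hist1h2ah end 1 and 2 bases past it, and Hist1h2al has none with a coding sequence. No signal could be found in any of these. Hist1h1d has 12 signals after its stop codon, though none within 40 bases of its annotated end.

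The remaining genes named by their level showed no common course. Hist1h2ae, an H2A gene, was at 2.78, 2.88 and 1.96 FPKM in WT cells, 3.72, 0.941 and 3.81 FPKM in 1KO cells, and 3.00, 1.44 and 3.47 FPKM in 1KO+1CI cells. Hist2h2aa1, an H2A gene of the chromosome 3 cluster, was at 2.44, 1.78 and 1.72 FPKM in WT cells, 1.74, 0.944 and 1.51 FPKM in 1KO cells, and 3.39, 4.50 and 2.14 FPKM in 1KO+1CI cells. Hist1h3g was at 1.38, 1.68 and 4.27 FPKM in WT cells, 2.40, 2.52 and 2.70 FPKM in 1KO cells, and 1.79, 3.07 and 1.21 FPKM in 1KO+1CI cells. Only the WT library of day 4 stood above the rest for this H3 gene. Hist1h4n was at 4.67, 0.406 and 2.71 FPKM in WT cells, 3.62, 2.36 and 1.53 FPKM in 1KO cells, and 2.48, 1.86 and 1.59 FPKM in 1KO+1CI cells. It had the most negative difference of WT day 2 against day 0, with a ratio to day 0 of 0.0871 (0.0226 to 0.241).

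The question put to the lines was whether loss of DNMT1, or its inactive form, altered expression. The summed histone RNA was higher in 1KO than in WT cells on each day, with ratios of 1.12 (1.02 to 1.22), 1.17 (1.04 to 1.32) and 1.19 (1.07 to 1.32) on days 0, 2 and 4. In FPKM over all 38 distinct genes these ratios were 1.3, 1.24 and 1.17. The classes were not alike on day 0, with read ratios of 0.929 (0.803 to 1.08) for H1 and 1.08 (0.892 to 1.31) for H2A. They were 1.54 (1.21 to 1.98) for H2B, 1.15 (0.923 to 1.44) for H3 and 1.31 (1.03 to 1.68) for H4. No histone gene was called for 1KO against WT in the additive fit, in which 0.71% of all genes were higher and 1.15% lower. Its unadjusted p was under 0.05 for 4 of the 38 histone genes and for 2267 of all 15074 genes. On day 0, 11 of 38 genes were over 0.5 (against 10% of all genes) and 5 under -0.5 (against 11.1%). On day 2 the counts were 6 (against 7.09%) and 5 (against 7.18%), and on day 4 they were 9 (against 7.61%) and 5 (against 5.32%). The shares of histone genes lay above those of all genes in both directions on each day. These genes have few reads, and the part of counting error in the counts was not tested.

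The genes that differed most between 1KO and WT cells in log2(FPKM + 1) varied with the day. On day 0 they were Hist1h2bj, at 4.36 times the WT level (2.35 to 8.84), and Hist1h2af, an H2A gene with 2 reads in 1KO and 16 in WT cells and a ratio of 0.0922 (0.0103 to 0.392). On day 2 they were Hist3h2ba, at 5.14 times (2.22 to 13.8), and Hist1h2ae, at 0.327 times (0.151 to 0.651). On day 4 they were Hist1h3c, at 3.16 times (1.75 to 6.05), and again Hist1h2af, at 0.155 times (0.0168 to 0.696). Hist1h3c was the single histone gene over 0.5 on all 3 days (0.962% of all genes), with 1.69 times the WT level on day 0 (1.03 to 2.86) and 3.74 times on day 2 (1.72 to 8.97). Its fitted difference was 0.97 ± 0.27 and did not pass the adjustment (adjusted p = 0.139). Hist1h2bc and Hist1h4i, with 12.2 FPKM in 1KO against 3.92 FPKM in WT cells and 8.36 against 3.01 FPKM, had a higher 1KO level on day 0. On day 2 Hist1h2bc was at 11.5 against 7.96 FPKM and Hist1h4i at 7.48 against 5.94 FPKM. The 1KO level was not higher on day 4, when Hist1h2bc was at 5.38 against 6.25 FPKM and Hist1h4i at 4.96 against 6.04 FPKM. The feeder marker sum on day 0 was 201.1 FPKM in 1KO and 100.3 FPKM in WT cells, and its part in the day 0 differences was not tested.

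Between 1KO+1CI and 1KO cells the sums had ratios on days 0 and 4 of 1.02 (0.943 to 1.11) and 1.02 (0.928 to 1.13), with intervals that hold 1, and on day 2 a ratio of 1.21 (1.08 to 1.36). No histone gene was called in the additive fit, where 0.00663% of all genes were called higher and 0% lower. Its unadjusted p was under 0.05 for 3 histone genes and for 564 of all 15074 genes. On day 0, 6 genes were over 0.5 (against 2.43% of all genes) and 3 under -0.5 (against 3.62%), on day 2 the counts were 6 (against 2.32%) and 4 (against 1.67%), and on day 4 they were 4 (against 4.36%) and 7 (against 3.44%). The 1KO libraries serve in both line comparisons. Hist1h3c, which was higher in 1KO than in WT cells, had a 1KO+1CI level on day 2 of 0.171 times that of 1KO cells (0.0516 to 0.446), and on day 4 of 0.396 times (0.218 to 0.689), the most negative log2(FPKM + 1) difference of both days. On day 0 its ratio was 1.17 (0.792 to 1.74). Hist2h2aa1 had the largest positive difference on day 2, at 4.77 times (2.46 to 10.1), with 53 against 11 reads, and was at 1.95 times the 1KO level on day 0 (1.19 to 3.28). On day 0 the largest positive difference was that of Hist1h4d, at 2.51 times (1.29 to 5.13), and the most negative that of the H2B gene Hist1h2bp, at -0.65 in log2(FPKM + 1). On day 4 the largest positive difference was that of Hist1h4h, at 4.26 times (1.54 to 14.6).

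For 1KO+1CI against WT, a contrast in the additive fit alone, Hist1h1c was higher by 0.71 ± 0.14 (adjusted p = 0.0365), where 1.8% of all genes were higher and 2.14% lower. Hist3h2a came next with 0.66 ± 0.15 (adjusted p = 0.0535). Hist1h1c rose from WT to 1KO+1CI cells on each day, from 8.28 to 13.2 FPKM, from 3.35 to 6.96 FPKM and from 4.99 to 8.28 FPKM. Its call was lost when any 1 day was left out, with adjusted p of 0.115 without day 0, 0.259 without day 2 and 0.12 without day 4.

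Several of the remaining extremes of the day comparisons rest on few reads. In WT cells on day 2 the largest positive difference was that of Hist1h2bc, by 0.86 in log2(FPKM + 1). In 1KO cells on day 2 it was that of Hist1h2af, with 17 against 2 reads on day 0 and a ratio of 11.3 (2.69 to 101), and the most negative that of Hist1h2bj. In 1KO+1CI cells on day 2 they were Hist1h3d, with 13 against 2 reads and a ratio of 7.32 (1.66 to 66.8), and Hist1h3c, at 0.102 times (0.0320 to 0.254). On day 4 Hist1h4k had the largest positive difference in 1KO cells, at 3.72 times (1.83 to 8.15), and in 1KO+1CI cells, at 4.00 times (1.77 to 10.2), while Hist1h3g had it in WT cells, at 3.09 times (1.66 to 6.11). The most negative differences on day 4 were those of Hist1h1b in WT cells, of Hist1h2bc in 1KO cells, with -1.05 in log2(FPKM + 1), and of Hist1h1a in 1KO+1CI cells, at 0.291 times (0.145 to 0.541).

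Few genes that make and remove the stem-loop form were called. Slbp, which encodes the stem-loop binding protein, was at 52.3, 48.3 and 60.7 FPKM in WT cells on days 0, 2 and 4, 58.1, 43.9 and 54.2 FPKM in 1KO cells, and 53.8, 44.7 and 51.8 FPKM in 1KO+1CI cells. It was lowest on day 2 in each line, as was the histone sum, but was not called on either day. Of 18 genes of histone 3′ processing, 1 rose (against 7.34% of all genes) and 1 fell (against 8.11%) on day 2: Ncbp2, of the cap-binding complex, by 0.59 ± 0.15 (adjusted p = 0.0352) and Snrpf, a core protein of spliceosomal and U7 particles, by -0.59 ± 0.11 (adjusted p = 0.0131). On day 4, where 11.3% of all genes rose and 12.3% fell, 2 rose (Ncbp2 and Snrpb) and 1 fell (Zfp473, a U7-associated zinc finger protein, by -0.47 ± 0.12, adjusted p = 0.0246). Lsm10 and Lsm11, the U7-specific Sm-like proteins, lay between 6.99 and 11.4 FPKM and between 1.51 and 2.69 FPKM in the 9 libraries. Casp8ap2, which takes part in histone processing, lay between 11.0 and 15.5 FPKM, and Npat, the coactivator of histone genes in S phase, between 6.81 and 10.6 FPKM. None of these 4 genes was called on any contrast.

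Of 10 genes of histone mRNA decay, 2 were lower in 1KO than in WT cells (against 1.15% of all genes) and the same 2 in 1KO+1CI than in WT cells (against 2.14%). Eri1, the exonuclease that trims the stem-loop end, was at 18.5, 20.4 and 19.7 FPKM in WT cells, 11.7, 15.2 and 12.9 FPKM in 1KO cells, and 12.4, 14.7 and 12.9 FPKM in 1KO+1CI cells. All 3 WT libraries lay above all 6 others. The fitted difference was -0.54 ± 0.10 for 1KO (adjusted p = 0.0398) and -0.52 ± 0.10 for 1KO+1CI (adjusted p = 0.0287), each against WT. Upf1, a helicase of mRNA decay, was lower by -0.45 ± 0.09 in 1KO (adjusted p = 0.0457) and -0.44 ± 0.09 in 1KO+1CI cells (adjusted p = 0.0328). No decay gene was called on day 2 (against 8.11% of all genes lower and 7.34% higher), and 2 were lower on day 4 (Upf1 and Ddx19b, against 12.3%). Of 8 genes of histone gene transcription, none was called on day 2 and Ccne2, a cyclin E gene, rose on day 4 (against 11.3% of all genes) by 0.53 ± 0.13 (adjusted p = 0.0224). Ell, an elongation factor gene, was lower in 1KO+1CI than in WT cells by -0.59 ± 0.13 (adjusted p = 0.0436).

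Genes of DNA replication, which are also tied to S phase, were at much higher levels than the histone genes. Of 32 genes, 6 fell (against 8.11% of all genes) and 2 rose (against 7.34%) on day 2, with a median of -0.05, and 11 fell (against 12.3%) and 1 rose (against 11.3%) on day 4, with a median of -0.23. Their summed level in WT cells was 2011, 1972 and 2049 FPKM on days 0, 2 and 4, in 1KO cells 2211, 1857 and 1754 FPKM, and in 1KO+1CI cells 2006, 1777 and 1520 FPKM. The sum was lower on day 2 than on day 0 in each line, as was the histone sum, and was higher on day 4 than on day 2 in WT cells alone. The lists were not tested against each other. Between lines, 2 replication genes were lower in 1KO (against 1.15% of all genes) and 5 in 1KO+1CI cells (against 2.14%), each against WT, with Gins2 lowest at -0.60 and -0.76. The extreme fitted values were 0.70 for Gins3 and -0.62 for Ung on day 2, and 0.45 for Gins3 and -1.01 for E2f1 on day 4.

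The replacement histones, whose genes are transcribed outside S phase as well and give polyadenylated mRNA, were present at much higher levels than the cluster genes, with H2afz at 373 to 626 FPKM. Of 11 genes, 4 fell on day 2 (against 8.11% of all genes): the linker histone gene H1fx by -0.86 ± 0.19 (adjusted p = 0.0228), the macroH2A genes H2afy by -1.05 ± 0.19 (adjusted p = 0.0121) and H2afy2 by -0.64 ± 0.16 (adjusted p = 0.0382), and Cenpa, the centromeric H3, by -0.70 ± 0.13 (adjusted p = 0.0124). None rose on day 2. On day 4, 4 rose (against 11.3%) and 1 fell (against 12.3%): H1f0, a linker histone of cells leaving the cycle, by 1.30 ± 0.24 (adjusted p = 0.00877), H3f3a by 0.48 ± 0.10 (adjusted p = 0.0153), H2afz by 0.36 ± 0.11 (adjusted p = 0.0451) and H3f3b by 0.32 ± 0.10 (adjusted p = 0.0462), with H2afy lower by -1.41 ± 0.19 (adjusted p = 0.00241). H1f0 was at 18.8, 9.28 and 29.5 FPKM in WT cells, 19.5, 14.7 and 82.6 FPKM in 1KO cells, and 16.6, 14.9 and 40.9 FPKM in 1KO+1CI cells. It was thus lowest on day 2 and highest on day 4 in each line.

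Of the further lists, 16 genes of cleavage at poly(A) signals had no call on day 2 (against 8.11% of all genes lower and 7.34% higher), when the fitted values ran from -0.27 for Nudt21 to 0.35 for Cstf2t, and 1 rose on day 4 (against 11.3%, with 12.3% lower). Nudt21, which encodes a subunit of cleavage factor I, was the one gene of this list called between lines, lower by -0.66 in 1KO (against 1.15% of all genes lower) and by -0.69 in 1KO+1CI cells (against 2.14%), each against WT. Of 22 histone chaperone genes, 1 rose (against 7.34% of all genes) and none fell (against 8.11%) on day 2, with values from -0.34 for Rbbp7 to 0.50 for Daxx. On day 4, 2 rose (against 11.3%) and 3 fell (against 12.3%), with values from -0.68 for Hat1 to 0.50 for Mis18a. In 1KO+1CI against WT cells 1 was lower (against 2.14%). A list of 18 genes of cycle arrest and differentiation also holds cyclin D genes. Of these 18, 3 rose (against 7.34%) and 2 fell (against 8.11%) on day 2. The cyclin-dependent kinase inhibitor Cdkn1b was highest at 0.78 and the cyclin D gene Ccnd2 lowest at -0.96. On day 4, 1 rose (against 11.3%) and 5 fell (against 12.3%), and the same genes had the extreme values, 0.94 and -1.28. In 1KO+1CI against WT cells 1 was higher (against 1.8%) and 1 lower (against 2.14%), with extreme values of 0.97 for Cdkn1a and -2.11 for Cdkn1c.

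**Figure D5:**
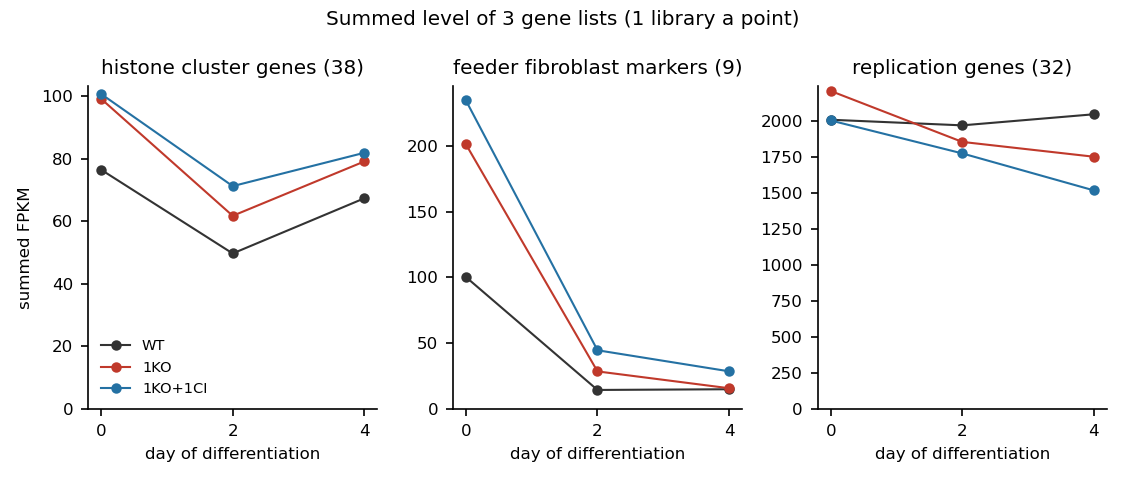
Summed FPKM (vertical axes, linear, each from 0) of the 38 distinct histone genes, 9 feeder fibroblast markers and 32 replication genes, by day of differentiation and line, with 1 library a point. The histone sum is lowest on day 2 and higher again on day 4 in each line, the feeder markers are highest on day 0, and the replication genes lie between 1520 and 2211 FPKM throughout.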

How the data were processed

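RNA-seq was analysed in 9 libraries, 1 for each line and day. The authors used Trim Galore for trimming and HISAT2 for mapping to mm10, and deposited FPKM values made by HOMER analyzeRepeats.pl. For tool versions, strand setting and the counting of multiply aligned reads, nothing is given in the sources used here. Of 15095 entries, 21 that name no gene were left out. Library depth and whole reads were recovered from steps in the FPKM values (tolerance 0.15 reads, length within 6 bases of RefSeq), and exact intervals (95%) were computed from them with scipy 1.17.1. Differences used log2(FPKM + 1), which understates changes of low genes, with a threshold of 0.5. The additive fit used limma (lmFit, eBayes with trend) with 4 residual degrees of freedom and was tested on simulated data. Stem-loops, motifs and signals were searched in GENCODE M21 transcripts and RefSeq promoters. Groups came from the sample titles. The table of repeat copies was not used here. The genes, the gene lists and the tests were chosen with earlier results of these data known. Named were the 3 genes with the highest mean FPKM in each class, the largest rise and deepest fall of each comparison among genes that reached 1 FPKM in either library, every called histone gene, 7 named processing, transcription and decay genes, and the extremes of other lists. Other pseudocounts, scalings, filters and thresholds, and fits without 1 day, were tried.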

Additional observations from a re-analysis of the deposited data

Results flagged for a closer look

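With 1 library for each condition no sample could be compared with others of its group. Values past the threshold in opposite directions under the same contrast, each with a counting interval that excludes 1, are listed here, and in no case was the difference between them tested. From day 0 to day 2, Hist1h3d differed by 0.93 in 1KO+1CI cells and by -0.70 in 1KO cells, and Hist3h2ba by 0.82 in 1KO+1CI cells and by -1.24 in WT cells. From day 0 to day 4, Hist1h4i differed by 0.81 in WT cells and by 0.70 in 1KO+1CI cells, but by -0.65 in 1KO cells. Between 1KO and WT cells, Hist1h2ae differed by 0.70 on day 4 and by -1.0 on day 2, and Hist1h2ak by 0.82 on day 4 and by -0.82 on day 2. Between 1KO+1CI and 1KO cells, Hist1h2af differed by 0.61 on day 0 and by -0.74 on day 2, Hist1h2ak by 0.72 on day 2 and by -0.92 on day 4, Hist1h3d by 1.02 on day 2 and by -0.61 on day 0, and Hist1h4i by 0.79 on day 4 and by -0.57 on day 0. Hist1h2ak and Hist1h3d had 1 read each in the 1KO library of day 2.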

How the results depend on the processing

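Each line and day has 1 library, so there are no replicate numbers to block on, and the additive fit takes day differences within lines and line differences within days. Of the alternative values computed, 0 changed direction. With a pseudocount of 0.1 the day 2 medians were -0.81, -0.84 and -0.68 in WT, 1KO and 1KO+1CI cells and the WT day 4 median -0.35, and with 0.01 they were -0.95, -0.90, -0.76 and -0.37. Genes past 0.5 then numbered, for pseudocounts of 0.1 and 0.01, 24 and 25 for 1KO against WT on day 2, 24 and 24 on day 4, 15 and 17, 20 and 22, and 19 and 19 for 1KO+1CI against 1KO on days 0, 2 and 4, 32 and 32 for day 2 in WT cells, and 22 and 24 and 24 and 24 for day 4 in 1KO and 1KO+1CI cells. Past a threshold of 1 lay 4, 3 and 2 genes for 1KO against WT, 0, 3 and 1 for 1KO+1CI against 1KO, 9, 9 and 6 for day 2 and 5, 3 and 3 for day 4 in WT, 1KO and 1KO+1CI cells. The shares of all genes past these other settings are not given here. These counts therefore show how the number depends on the setting and are not a result about histone genes. Genes whose protein no other member shares had medians of -0.55 (WT) and -0.82 (1KO) on day 2 and -0.40 (1KO) and -0.33 (1KO+1CI) on day 4. Without Hist1h2bc the summed FPKM ratio for WT day 2 was 0.576.

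Chosen after seeing the data was the restriction to 14 genes with under 25% of windows shared. It gave medians of -0.71 (1KO, day 2), -0.04 (1KO+1CI, day 4) and 0.41 (1KO+1CI against 1KO, day 2). The summed FPKM ratios were 0.88 and 0.925 (day 4 in 1KO and 1KO+1CI cells) and 1.14 (1KO against WT, day 0). Of the 14 genes, 5 and 3 were called lower on days 2 and 4 (against 8.11% and 12.3% of all genes), with fewer genes to call. For 1KO+1CI against WT the additive fit called 2 genes with either pseudocount, with the same sum over all genes, with genes under 1 FPKM left out or with no trend, and 0 without day 0, day 2 or day 4. The cause was not tested. Calls lost were those of Hist1h2al on day 2 (adjusted p from limma 0.0703 and 0.121 with the pseudocounts, 0.056 with no trend, 0.0681 without day 4), Hist1h3c on day 2 (0.0655 without day 4), Hist1h1d on day 4 (0.0506 without day 2) and Hist2h2bb on day 4 (0.0698 and 0.0915 with the pseudocounts, 0.0549 with the filter, 0.099 without day 2). A fit without day 0 gives no day contrast. With 14 reads in the middle gene, depth limits single genes more than sums.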
